A study of Mus musculus with 36 samples.

Results

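The proteasome genes described here are 9 listed members: the constitutive catalytic subunits Psmb5, Psmb6 and Psmb7, their immunoproteasome counterparts Psmb8, Psmb9 and Psmb10, the thymoproteasome subunit Psmb11, and the activator subunits Psme1 and Psme2. Each gene was represented by a probe set whose platform annotation names that gene alone, taking the brightest by mean over 36 arrays. This gave a value for 8 of the 9 listed genes, out of 18193 genes with a probe set of their own. Psme2 had none, and only a probe set shared with Psme2b carries it. All 8 measured members were among the 14495 genes tested, which were above the pooled median of all values (log2 5.66) in at least 2 arrays. Psmb11 was above it in 19 of 36 arrays and the other 7 measured members in all 36.

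The proteasome is a barrel-shaped protease that cuts cellular proteins into peptides, some of which are loaded onto MHC class I molecules. Its cutting is done by the subunits beta1, beta2 and beta5, which Psmb6, Psmb7 and Psmb5 encode. Interferon-gamma and immune cell identity favour the replacement of these by Psmb9, Psmb10 and Psmb8. In cortical thymic epithelium a further beta5 form, encoded by Psmb11, takes the place of Psmb5 and Psmb8, and in mice the peptides it yields are needed for the positive selection of most CD8 T cells. Psme1 and Psme2 encode the PA28 cap that opens the barrel.

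RNA from 6 cell populations of the thymus of male wild-type C57BL/6J mice, aged 1, 3 or 6 months, was measured on Affymetrix mouse whole-genome arrays. The populations were sorted by flow cytometry after enzymatic digestion: Sirpa-positive and Sirpa-negative dendritic cells (Sirpa+ DC and Sirpa− DC), cortical thymic epithelial cells (cTEC), medullary epithelial cells (mTEChi and mTEClo, told apart in such sorts by high or low surface CD80 and MHC class II), and fibroblasts. Each of the 18 groups of population and age had 2 arrays, so that a population had 6. No group carried a mutation or a treatment. The labels give 1 mouse for each sample, whereas the series' design text speaks of a pair of mice per age, so p-values measure the spread between these samples and may not measure that between unrelated animals. Signals are on the log2 scale, where a difference of 1 is 2-fold, and the median of an array was between 5.61 and 5.75. Levels are compared between populations for 1 gene at a time, since probe sets of different genes are not on a common scale. In sorted bulk samples, fewer cells of a type and less RNA per cell cannot be told apart.

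The mean of each list of markers was highest under its own label. Array means were 10.28 to 11.59 in cTEC for 7 cTEC markers, and 9.76 to 10.79 in mTEChi and 8.75 to 9.85 in mTEClo for 6 of 7 mTEC markers. They were 9.16 to 10.24 in DC for 4 DC markers, and 9.26 to 12.91 in fibroblasts for 7 fibroblast markers. Single markers did not all follow their list. The mTEC markers Krt5 and Krt14 averaged 11.48 and 10.38 in cTEC, against 10.85 and 10.10 in mTEChi and 12.71 and 11.88 in mTEClo. The fibroblast marker Dcn averaged 11.76 in cTEC and Pdgfrb 9.95 in mTEChi. Thymocyte markers were also present. The mean of 13 of 14 thymocyte markers was 8.87 to 11.17 in fibroblast arrays. It was 7.01 to 8.04 in Sirpa+ DC, 6.27 to 7.50 in Sirpa− DC, 6.65 to 8.76 in cTEC, 5.98 to 6.60 in mTEChi and 5.72 to 7.24 in mTEClo. The mean of 6 macrophage markers was 9.68 to 10.58 in Sirpa+ DC and 6.67 to 8.68 in Sirpa− DC, against 5.22 to 5.77 in cTEC, 6.22 to 7 in mTEChi, 5.25 to 5.79 in mTEClo and 5.54 to 6.33 in fibroblasts. The 3′ minus 5′ log2 difference of the Gapdh and Actb controls, which grows as RNA degrades, was largest in a fibroblast array of 1 month (3.15) and an mTEClo array of 3 months (3.07).

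The promoters are shown for 4 members, as the 250 bases before the gene's start and its first 50 bases, read 5′ to 3′ on the gene's strand from RefSeq (GRCm38.p6). RefSeq's table matched 8 of the 9 listed members, and Psmb7 is the one with no entry. Psmb11 and Psmb5 are shown because they are neighbours on chromosome 14 that encode alternative forms of beta5 and yet differed in their levels, as described below. The Psmb11 window lies at chr14:54625060-54625359 on the plus strand. Capitals mark GCGTC, the reverse complement of the GACGC core bound by Foxn1, the transcription factor of thymic epithelium.
Psmb11: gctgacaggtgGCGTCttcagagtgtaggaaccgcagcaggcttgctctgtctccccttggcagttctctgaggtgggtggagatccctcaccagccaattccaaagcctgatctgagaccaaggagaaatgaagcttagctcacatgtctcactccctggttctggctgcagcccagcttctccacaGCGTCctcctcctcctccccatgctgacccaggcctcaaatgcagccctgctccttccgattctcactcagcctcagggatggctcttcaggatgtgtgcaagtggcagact
The Psmb5 window lies at chr14:54617946-54618245 on the minus strand, and the start of the gene is 7315 bases from that of Psmb11. Capitals mark TGACGTCGC, a match to TGACNNNGC, the antioxidant response element through which Nfe2l1 acts on proteasome genes.
Psmb5: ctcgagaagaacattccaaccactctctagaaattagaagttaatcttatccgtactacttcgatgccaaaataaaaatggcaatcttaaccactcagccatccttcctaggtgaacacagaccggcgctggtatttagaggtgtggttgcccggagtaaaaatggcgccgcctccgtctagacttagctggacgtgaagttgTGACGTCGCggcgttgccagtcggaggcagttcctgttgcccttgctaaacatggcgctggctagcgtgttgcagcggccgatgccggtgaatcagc
The Psmb9 window lies at chr17:34187281-34187580 on the minus strand. Psmb9 is shown because Tap1, which encodes a chain of the peptide transporter of MHC class I loading, starts 226 bases from its start on the opposite strand. The capitals mark the first base of each gene.
Psmb9: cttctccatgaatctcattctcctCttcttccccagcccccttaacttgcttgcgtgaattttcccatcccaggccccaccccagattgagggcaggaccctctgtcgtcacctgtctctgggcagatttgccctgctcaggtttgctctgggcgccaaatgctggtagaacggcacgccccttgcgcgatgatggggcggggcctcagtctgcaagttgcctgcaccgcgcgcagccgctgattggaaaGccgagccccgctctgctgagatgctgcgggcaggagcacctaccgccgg
The Psme1 window lies at chr14:55578244-55578543 on the plus strand. Capitals mark TTTCGCTTTC, the reverse complement of a match to the interferon-stimulated response element (GAAA, any 2 bases, GAAA).
Psme1: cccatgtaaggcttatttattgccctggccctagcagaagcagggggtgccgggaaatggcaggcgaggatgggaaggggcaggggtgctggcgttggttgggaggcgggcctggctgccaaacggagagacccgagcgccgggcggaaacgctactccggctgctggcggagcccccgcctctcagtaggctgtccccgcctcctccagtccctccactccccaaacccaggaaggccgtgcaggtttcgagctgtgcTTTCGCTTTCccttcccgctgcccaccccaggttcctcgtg

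The motifs were searched as GACGC, TGACNNNGC and the interferon element as spelled above, on both strands, and none overlapped another in these promoters. GACGC was in 27.2% of 32851 mouse promoters of this length and at least 2 copies were in 8.15%. The Psmb11 copies lie at −239 to −235 and −62 to −58, counted from the start base as 1. Psmb8 and Psme2 also hold GACGC, while the Psmb5, Psmb6, Psmb9, Psmb10 and Psme1 windows do not have these letters. TGACNNNGC was in 12.4% of promoters, and is at −47 to −39 in Psmb5 and at −9 to −1 in Psmb6. The interferon element was in 3.44% of promoters, and among members was matched only in Psme1, at 10 to 19. A match describes the letters and is no measurement of binding.

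The constitutive subunits varied least between populations. Psmb5, the chymotrypsin-like beta5 subunit, had a lowest, median and highest log2 signal of 10.78, 11.05 and 11.70 in Sirpa+ DC, 11.08, 11.31 and 11.49 in Sirpa− DC, and 10.78, 11.03 and 11.66 in cTEC. It had 10.84, 11.16 and 11.47 in mTEChi, 10.72, 11.02 and 11.39 in mTEClo, and 10.76, 11.19 and 11.55 in fibroblasts. All 6 ranges overlapped, and no neighbours in the order of its means differed. Psmb6, the beta1 subunit, averaged from 10.59 in Sirpa+ DC to 10.95 in mTEClo. Its neighbours in that order did not differ either, although the mean of the DC was below that of the epithelial populations (−0.28 ± 0.09, limma adjusted p = 0.00558). That difference was 0.01 with equal array medians and −0.08 with the 3′ minus 5′ difference of the controls as a covariate, and passed in neither (limma, adjusted p = 0.957 and 0.558).

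Psmb7, the trypsin-like beta2 subunit, varied more. It had a lowest, median and highest signal of 9.89, 10.79 and 11.26 in Sirpa+ DC, 10.36, 11.24 and 11.41 in Sirpa− DC, 9.12, 10.24 and 10.54 in cTEC, 10, 10.88 and 11.14 in mTEChi, 9.59, 10.56 and 11.11 in mTEClo, and 9.04, 10.14 and 10.99 in fibroblasts. The ranges were wide and overlapped, and in each population the lowest value was that of an array of 6 months. In limma's fit of all 18 group means, Psmb7 was lower in cTEC than in the mean of the mTEC populations (−0.49 ± 0.12, 1.40-fold, adjusted p = 0.00139), and higher in DC than in the epithelial populations (0.46 ± 0.09, adjusted p = 5.5e-05). It was lower in Sirpa+ than in Sirpa− DC (−0.43 ± 0.14, adjusted p = 0.0282). A gene was called between populations at an adjusted p under 0.05 and at least a 2-fold difference, and none of these Psmb7 differences reached 2-fold.

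**Figure D1:**
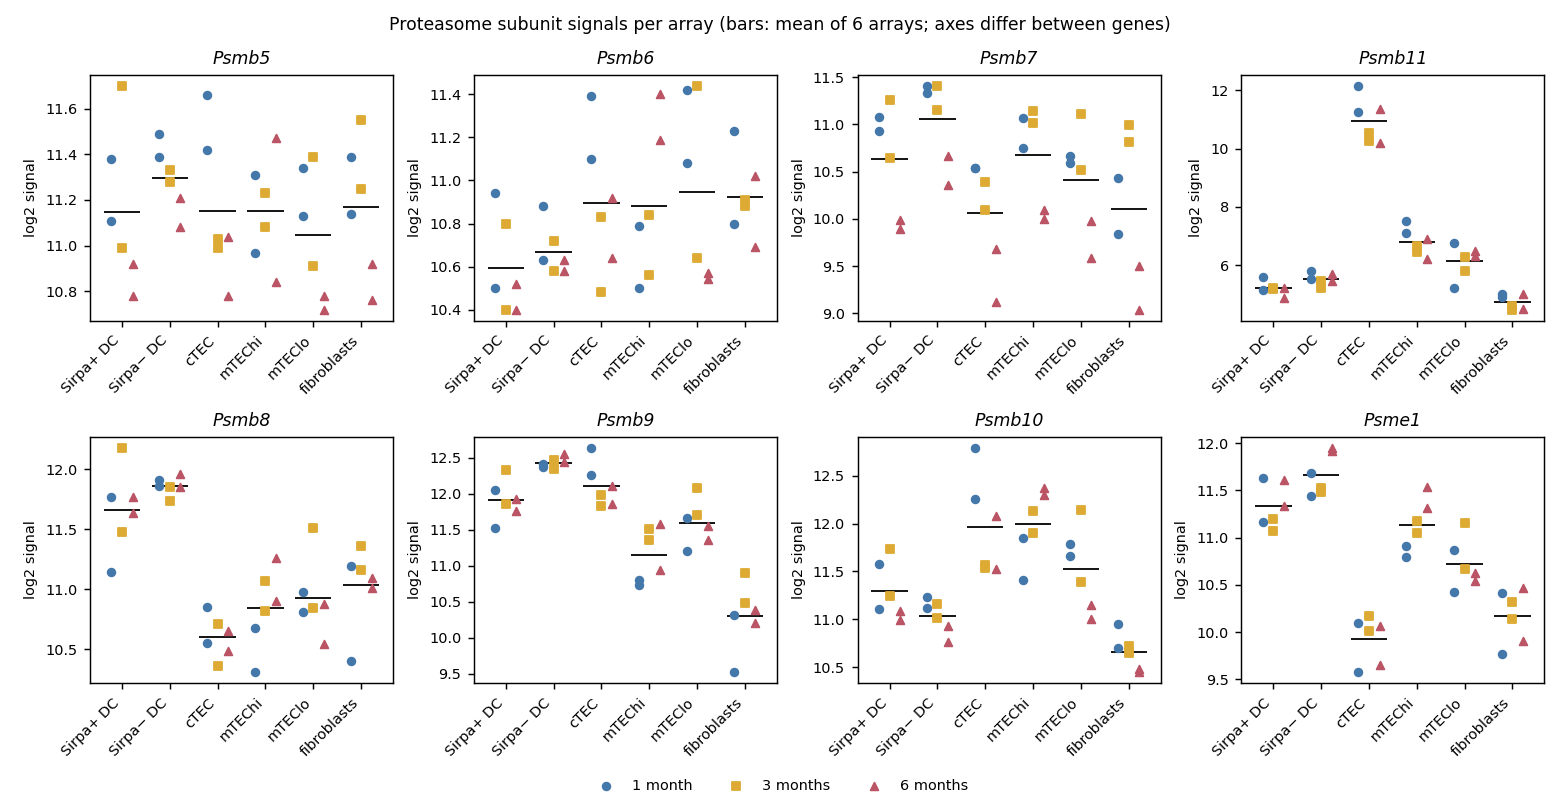
Log2 signal (vertical axis, its range set for each gene) of the 8 measured members in each of the 36 arrays by population (horizontal axis), with points coloured by age and bars for the mean of 6 arrays. Psmb11 is at 10.18 to 12.16 in cTEC and no higher than 7.53 elsewhere. Psmb8 and Psme1 have their highest means in the DC populations, with the mTEChi range of Psme1 overlapping that of Sirpa+ DC. Psmb9 is lowest in fibroblasts, and Psmb5 differs little.

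The immunoproteasome subunits did not share an order across populations. Psmb8, the inducible beta5 subunit, had a lowest, median and highest signal of 11.14, 11.71 and 12.18 in Sirpa+ DC and 11.74, 11.86 and 11.96 in Sirpa− DC. It had 10.36, 10.60 and 10.85 in cTEC, 10.31, 10.86 and 11.26 in mTEChi, and 10.54, 10.86 and 11.51 in mTEClo. Fibroblasts had 10.40, 11.12 and 11.36. The DC arrays stood above the cTEC and mTEChi arrays with the exception of 1 Sirpa+ array of 1 month at 11.14, which lay within the mTEChi range. Psmb8 averaged 11.76 in the DC and 10.79 in the epithelial populations (0.97 ± 0.10, 1.96-fold, limma adjusted p = 1.78e-09). A dim further probe set of Psmb8 had means of 6.18 (Sirpa+ DC) and 6.95 (Sirpa− DC), against 4.72 in cTEC, 5.43 in mTEChi, 5.23 in mTEClo and 5.26 in fibroblasts. With the mean of both probe sets the difference between DC and epithelium was 1.21 (limma, adjusted p = 9.1e-12), which passed 2-fold.

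Psmb9, the inducible beta1 subunit, was high in DC and also in cTEC. Its lowest, median and highest signals were 11.53, 11.90 and 12.33 in Sirpa+ DC, 12.35, 12.43 and 12.55 in Sirpa− DC, and 11.83, 12.05 and 12.64 in cTEC. They were 10.74, 11.15 and 11.58 in mTEChi, 11.21, 11.60 and 12.09 in mTEClo, and 9.53, 10.35 and 10.90 in fibroblasts. Every Sirpa+ array was below every Sirpa− array (−0.52 ± 0.14, limma adjusted p = 0.00938), and the cTEC mean exceeded that of the mTEC by 0.74 ± 0.12 (1.67-fold, adjusted p = 1.87e-05). Sirpa− DC were 2.02-fold above the mean of the other 5 populations (1.01 ± 0.11, limma adjusted p = 1.46e-08) and fibroblasts were 2.90-fold below (−1.54 ± 0.11, adjusted p = 7.85e-12). The Sirpa− DC difference was 0.74 when fibroblasts were left out of the others, a comparison chosen after the data were seen, and then no longer reached 2-fold. It also missed 2-fold, at 0.99 to 1.00, in 7 fits that each left out 1 array: mTEClo of 1 month, mTEChi of 6 months, Sirpa− DC of 3 or 6 months, Sirpa+ DC of 1 or 3 months, or fibroblasts of 1 month.

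Psmb10, the inducible beta2 subunit, followed the opposite order between DC and epithelium. Its lowest, median and highest signals were 10.99, 11.18 and 11.73 in Sirpa+ DC, 10.76, 11.06 and 11.23 in Sirpa− DC, and 11.52, 11.82 and 12.79 in cTEC. They were 11.41, 12.02 and 12.37 in mTEChi, 11, 11.53 and 12.14 in mTEClo, and 10.45, 10.67 and 10.95 in fibroblasts. All Sirpa− DC arrays lay below all cTEC and mTEChi arrays, while mTEClo and Sirpa+ DC did not differ (0.23 ± 0.13, limma adjusted p = 0.134). DC were below the epithelial populations (−0.66 ± 0.09, 1.58-fold, limma adjusted p = 1.57e-07), whereas Psmb8 and Psmb9 differed the other way, and mTEChi were above mTEClo by 0.47 ± 0.13 (adjusted p = 0.00397). Fibroblasts were below the other 5 populations (−0.90 ± 0.10, limma, adjusted p = 3.28e-08).

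Psmb11, the thymoproteasome subunit, had a lowest, median and highest signal of 10.18, 10.91 and 12.16 in cTEC, and every cTEC array was above every other array. In mTEChi these values were 6.21, 6.77 and 7.53, and in mTEClo 5.23, 6.30 and 6.77. In Sirpa+ DC they were 4.86, 5.18 and 5.60, in Sirpa− DC 5.21, 5.50 and 5.78, and in fibroblasts 4.47, 4.75 and 5.02. The cTEC mean exceeded the mean of the mTEC populations by 4.49 ± 0.19 (22.41-fold, limma adjusted p = 1.58e-15), and all 5 others by 5.28 ± 0.17. The order below cTEC was mTEChi, mTEClo (mTEChi above mTEClo by 0.65 ± 0.22, limma adjusted p = 0.0152), Sirpa− DC (below mTEClo, limma adjusted p = 0.0168), Sirpa+ DC and fibroblasts. The last 3 did not differ as neighbours (limma adjusted p = 0.376 and 0.0796) and all Sirpa+ DC and fibroblast arrays were below the pooled median.

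Psme1, the PA28-alpha activator subunit, was low in cTEC and in fibroblasts, whose ranges overlapped and whose means did not differ beyond their error (0.24 ± 0.14 between fibroblasts and cTEC, limma adjusted p = 0.136). Its lowest, median and highest signals were 11.07, 11.26 and 11.63 in Sirpa+ DC, 11.44, 11.60 and 11.95 in Sirpa− DC, and 9.58, 10.04 and 10.17 in cTEC. They were 10.80, 11.12 and 11.54 in mTEChi, 10.43, 10.65 and 11.16 in mTEClo, and 9.77, 10.23 and 10.47 in fibroblasts. Each cTEC array was below each mTEC array (−1 ± 0.12, 1.99-fold, limma adjusted p = 9.85e-08), and cTEC were 2.11-fold below the other 5 populations (−1.07 ± 0.11, adjusted p = 2.61e-09). Without the first cTEC array of 1 month this second difference was −0.99 (limma, adjusted p = 9.23e-08), just under 2-fold. DC exceeded the epithelial populations by 0.91 ± 0.09 (1.88-fold, limma adjusted p = 8.64e-10), although Sirpa+ DC and mTEChi did not differ (0.20 ± 0.14, adjusted p = 0.195). Sirpa− DC were 2.01-fold above the other 5 (1.01 ± 0.11, limma adjusted p = 6.2e-09), or 0.89 above the other 4 without fibroblasts. The difference from the other 5 was 0.97 to 1.00, under 2-fold, in 8 fits that each left out 1 array (cTEC of 1 or 6 months, mTEClo of 1 or 3, Sirpa− DC of 1, Sirpa+ DC of 1, or fibroblasts of 1 or 6). The probe set shared by Psme2 and Psme2b, the gene for PA28-beta and a close relative of it, averaged 12.15 ± 0.27 in Sirpa+ DC, 12.31 ± 0.24 in Sirpa− DC, 11.16 ± 0.16 in cTEC, 12.17 ± 0.39 in mTEChi, 11.58 ± 0.34 in mTEClo and 10.76 ± 0.22 in fibroblasts (SD, n = 6 each). These values cannot be divided between the 2 genes and were not tested.

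Counted over the members, cTEC differed from the mTEC by at least 2-fold in 1 of 8 (Psmb11), where 13.6% of all genes tested were called, and passed the adjusted p alone in 4 of 8, where 52.2% of genes did. Between mTEChi and mTEClo 0 of 8 were called by limma (19.6% of all genes), while 4 of 8 passed an unadjusted p of 0.05 and the same number an adjusted one (55.6% of genes). Between Sirpa+ and Sirpa− DC 0 of 8 were called by limma (5.37% of genes), 3 passed an unadjusted p of 0.05 and 2 an adjusted one (20.9% of genes). Between DC and epithelium 1 of 8 was called (24.5% of genes), Psmb11 (−2.61 ± 0.14), and 7 of 8 passed the adjusted p alone (75.9% of genes). Against the mean of the other 5 populations, Sirpa+ DC had 1 of 8 members called (16.9% of genes), Sirpa− DC 3 of 8 (19.2%), cTEC 2 of 8 (16.1%) and fibroblasts 2 of 8 (18.4%). By limma, mTEChi had 0 of 8 (19.2%) and 5 at an unadjusted p of 0.05, and mTEClo had 0 of 8 (14.8%) and 2 at an unadjusted p of 0.05. Psmb11 was the member called in Sirpa+ DC (−1.64), and was among those called in Sirpa− DC (−1.25) and in fibroblasts (−2.18). In each of these the mean of the other 5 includes cTEC, where Psmb11 is high.

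Thymocyte markers differed along with some of these comparisons. Between cTEC and the mTEC, 10 of 13 were at least 2-fold higher in cTEC, and between fibroblasts and the other 5 populations 13 of 13 were higher. When the thymocyte mean entered the fit as a covariate, the cTEC against mTEC difference was 4.63 for Psmb11 (limma, adjusted p = 2.85e-08), −0.93 for Psme1 (adjusted p = 0.00825) and 0.53 for Psmb9 (adjusted p = 0.155). The fibroblast difference in Psmb9 was −1.95 with that covariate (limma, adjusted p = 0.0123). It was −1.23 in Psmb10, −0.66 in Psme1 and −1.88 in Psmb11 (limma, adjusted p = 0.0936, 0.435 and 0.133), of which the Psmb11 difference had been called without it (−2.18, with all fibroblast arrays below the pooled median, so that its size is uncertain). The Psme1 difference of Sirpa− DC from the other 5 was 0.99 with it (limma, adjusted p = 2.37e-06), under 2-fold. Scaling also moved the median of all genes between DC and epithelium, which was −0.01 as deposited, 0.13 with quantile normalization and 0.28 with equal array medians. Under equal array medians the DC against epithelium differences were 1.25 for Psmb8, 1.19 for Psme1, 0.83 for Psmb9 and −0.38 for Psmb10, each past an adjusted p of 0.05 with limma. Psmb6, at 0.01, no longer passed (adjusted p = 0.957), and Psmb5, which had not passed as deposited (0.11), did at 0.39 (limma, adjusted p = 7e-05). Macrophage markers also differed, 6 of 6 being called higher in DC than in epithelium and 4 of 6 higher in Sirpa+ than in Sirpa− DC, with C1qa at a mean of 11.80 in Sirpa+ DC and 8.09 in Sirpa− DC. Their part in the DC differences of the members was not tested.

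To compare partners free of array scaling, the log2 signal of a constitutive subunit was subtracted from that of its replacement in the same array, and the result was centred on the mean of the 36 arrays. Only differences between populations or ages are read from it. Arrays were exchanged between the compared sides within each age in an exact two-sided permutation test, with adjustment over 50 such tests (5 partner differences and 10 comparisons), of which 21 passed. The Psmb8 minus Psmb5 difference averaged 0.52 ± 0.31 in Sirpa+ DC, 0.57 ± 0.15 in Sirpa− DC, −0.55 ± 0.31 in cTEC, −0.30 ± 0.31 in mTEChi, −0.11 ± 0.21 in mTEClo and −0.13 ± 0.39 in fibroblasts (SD, n = 6 each). It was 0.87 higher in DC than in epithelium (exact permutation, adjusted p = 5.4e-06) and lower in cTEC than in the mTEC (−0.34, exact permutation, adjusted p = 0.0148). That cTEC difference was −0.25 without the first cTEC array of 1 month and −0.27 without the second of 3 months, and passed the threshold in neither (exact permutation, adjusted p = 0.0687 and 0.0667).

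The Psmb9 minus Psmb6 difference was lower in fibroblasts than in the other 5 populations and higher in cTEC than in the mTEC. It averaged 0.55 ± 0.20 in Sirpa+ DC, 0.99 ± 0.17 in Sirpa− DC, 0.45 ± 0.07 in cTEC, −0.49 ± 0.46 in mTEChi, −0.12 ± 0.39 in mTEClo and −1.39 ± 0.46 in fibroblasts (SD, n = 6 each). Its 6 cTEC arrays spanned only 0.39 to 0.57, above all 12 mTEC arrays, which reached 0.30 at most (difference 0.76, exact permutation, adjusted p = 0.00123, with the raw p of 0.000296 the smallest possible). Fibroblasts were below the other 5 (−1.66, exact permutation, adjusted p = 5.8e-05), while cTEC against the other 5 did not pass (0.54, adjusted p = 0.225).

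The Psmb10 minus Psmb7 difference ran from 0.98 ± 0.53 in cTEC to −0.94 ± 0.30 in Sirpa− DC, with −0.26 ± 0.37 in Sirpa+ DC, 0.40 ± 0.77 in mTEChi, 0.19 ± 0.18 in mTEClo and −0.36 ± 0.66 in fibroblasts (SD, n = 6 each). It was 1.17 higher in cTEC than in the other 5 populations (exact permutation, adjusted p = 5.8e-05), and lower in DC than in epithelium (−1.12, exact permutation, adjusted p = 1.89e-05). The direction between DC and epithelium was thus positive for the beta5 and beta1 partners and negative for the beta2 partners. For the beta1 partners, however, the cTEC arrays (0.39 to 0.57) lay within the Sirpa+ DC range (0.26 to 0.76). The Psmb11 minus Psmb8 difference was 4.95 ± 0.72 in cTEC against a mean of −0.99 in the other 5 (difference 5.94, exact permutation, adjusted p = 4.35e-05). Against Psmb5 the cTEC difference was 5.29 (exact permutation, adjusted p = 4.35e-05).

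**Figure D2:**
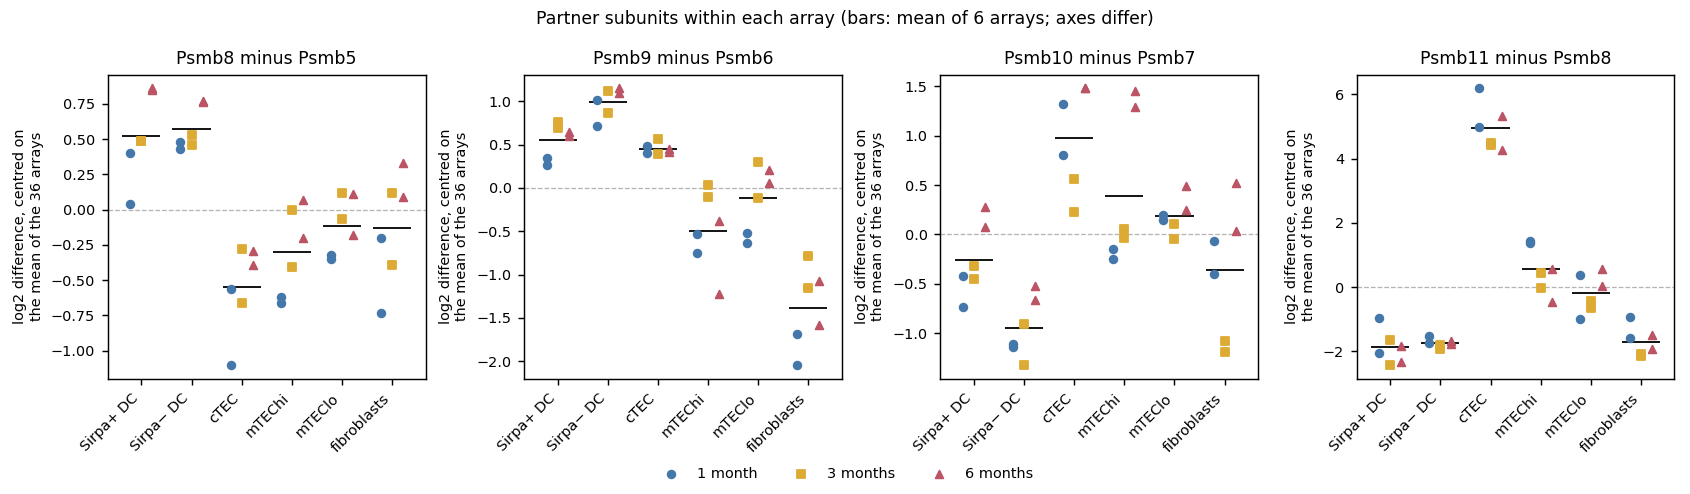
Within-array log2 difference of each replacement subunit and its partner (vertical axis, centred on the mean of the 36 arrays, with a range set for each panel) by population (horizontal axis), with points coloured by age and bars for the mean of 6 arrays. Psmb8 minus Psmb5 is highest in the DC populations. Psmb9 minus Psmb6 is high in the DC populations and in cTEC, whose arrays lie within the Sirpa+ DC range, and is lowest in fibroblasts. Psmb10 minus Psmb7 and Psmb11 minus Psmb8 are highest in cTEC.

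With age, the clearest change was in Psmb7. In Sirpa+ DC its arrays had 10.93 and 11.08 at 1 month, 11.26 and 10.64 at 3 months, and 9.89 and 9.99 at 6 months. In Sirpa− DC they had 11.41 and 11.33, then 11.41 and 11.15, then 10.36 and 10.67, and in cTEC 10.54 and 10.54, then 10.09 and 10.39, then 9.12 and 9.68. In all 6 populations both arrays of 6 months were below both of 1 month and both of 3 months. Whether populations of an age share mice is not given, so they may not be independent replicates of age. In mTEChi, Psmb7 had 11.07 and 10.75, then 11.02 and 11.14, then 10.09 and 10. In mTEClo it had 10.67 and 10.59, then 11.11 and 10.52, then 9.59 and 9.98, and in fibroblasts 9.84 and 10.43, then 10.99 and 10.81, then 9.04 and 9.50. Over the mean of the populations, 6 months were below 1 month (−0.94 ± 0.10, 1.92-fold, limma adjusted p = 1.73e-07) and below 3 months (−1.05 ± 0.10, adjusted p = 2.49e-08), while 3 months against 1 month gave 0.11 (adjusted p = 0.54).

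Of the 8 members, 3 were called between 6 months and 1 month over the mean of the populations, all lower at 6 months, where 36.6% of all genes were called and 21.7% were lower. Beside Psmb7 these were Psmb5 (−0.37 ± 0.09, limma adjusted p = 0.00246) and Psmb10 (−0.28 ± 0.09, adjusted p = 0.0239). Between 3 months and 1 month limma called 0 of 8 (6.34% of genes), with 2 at an unadjusted p of 0.05. Psmb8 (0.13, limma adjusted p = 0.348), Psmb9 (0.10, adjusted p = 0.469) and Psmb11 (−0.32, adjusted p = 0.111) did not pass between 6 months and 1 month. RNA quality moved with age as well: the 3′ minus 5′ difference of the controls had a lowest, median and highest value of 1.75, 2.24 and 3.15 at 1 month, 1.41, 1.93 and 3.07 at 3 months, and 1.41, 1.84 and 2.04 at 6 months. With that difference as a covariate, the change to 6 months was −0.78 for Psmb7 (limma, adjusted p = 0.000806). It was −0.21 for Psmb5 (limma, adjusted p = 0.29) and −0.05 for Psmb10 (adjusted p = 0.847), so that both of these calls were lost. The Psmb10 call was also lost with equal array medians (−0.19, limma adjusted p = 0.133), and when the first cTEC array of 1 or of 6 months, the first mTEChi array of 1 month or the second Sirpa+ DC array of 1 month was left out (−0.24 to −0.23, limma adjusted p = 0.0569 to 0.06). The labels give no date of processing, so age and any batch that follows it cannot be told apart.

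Within populations, where 2 arrays stand against 2, 9 of 96 tests of a member between 3 or 6 months and 1 month passed an adjusted p of 0.05. Of these 5 were Psmb7 at 6 months: −1.06 in Sirpa+ DC (limma, adjusted p = 0.0178; 2.06% of genes were called), −1.15 ± 0.24 in cTEC (adjusted p = 0.00409; 6.45%), −0.87 in mTEChi (adjusted p = 0.023; 9.51%), −0.85 in mTEClo (adjusted p = 0.0325; 6.42%) and −0.86 in fibroblasts (adjusted p = 0.00662; 36.2%). In Sirpa− DC the value was −0.86 (limma, adjusted p = 0.09; 0.904%). With the 3′ minus 5′ covariate the mTEClo and fibroblast values were −0.61 and −0.57 and did not pass (limma, adjusted p = 0.308 and 0.185), nor did they with equal array medians (−0.81 and −0.60, adjusted p = 0.0525 and 0.0568). The mTEClo call was also lost with the thymocyte covariate (−0.75, limma adjusted p = 0.075) and the mTEChi call with array weights (adjusted p = 0.243). When only the arrays of a population were fitted, the mTEChi, mTEClo and fibroblast calls were lost (limma, adjusted p = 0.0943, 0.0651 and 0.0802). Each of these 5 calls was lost in at least 1 fit that left out an array of its own population. In cTEC it was lost without the first array of 6 months (−0.87, limma adjusted p = 0.0887), and in Sirpa+ DC without any of the 4 arrays of 1 and 6 months (−1.14 to −0.99, adjusted p = 0.0917 to 0.214). In mTEChi it was lost without the first array of 1 month or the second of 6 months (−0.82 to −0.70, limma adjusted p = 0.104 to 0.186). In mTEClo it was lost without either array of 1 month or the first of 6 months (−0.88 to −0.65, limma adjusted p = 0.122 to 0.34), and in fibroblasts without the second of 1 month or the first of 6 months (−0.64 to −0.57, adjusted p = 0.0868 to 0.113).

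In cTEC, 2 of 8 members were called between 3 months and 1 month, where 5.4% of genes were. Psmb10 had 12.79 and 12.26 at 1 month, 11.57 and 11.53 at 3 months, and 11.52 and 12.08 at 6 months, and Psmb11 had 12.16 and 11.26, then 10.55 and 10.26, then 10.18 and 11.37. For both, the arrays of 1 month were above those of 3 months, while the 2 arrays of 6 months lay apart from each other. At 3 months Psmb10 (−0.97 ± 0.23, limma adjusted p = 0.0129) and Psmb11 (−1.30 ± 0.38, 2.47-fold, adjusted p = 0.0469) were lower than at 1 month. Psmb5 (−0.53), Psmb6 (−0.59) and Psmb9 (−0.54) were also lower in both arrays but were not called (limma, adjusted p = 0.164, 0.146 and 0.222), and with quantile normalization their differences were −0.19, −0.32 and −0.01. The same cTEC arrays differed in other respects: the thymocyte mean was 8.76 and 8.32 at 1 month, 6.65 and 7.53 at 3 months, and 7.73 and 8.44 at 6 months. Their 3′ minus 5′ difference was 2.63 and 2.43, then 2.04 and 1.94, then 1.96 and 2.04. With the thymocyte mean in the fit the 2 changes were −0.83 and −1.43 (limma, adjusted p = 0.181 and 0.175), and with the 3′ minus 5′ difference −0.73 and −1.14 (limma, adjusted p = 0.0808 and 0.173). With quantile normalization they were −0.51 and −1.04 (limma, adjusted p = 0.0645 and 0.159). The Psmb11 call was also lost with equal array medians (−1.25, limma adjusted p = 0.0711) and with the mean of all probe sets (−1.30, adjusted p = 0.0519), and both calls when only the cTEC arrays were fitted (limma, adjusted p = 0.0571 and 0.118). The Psmb10 call was lost without the first array of 1 month (−0.71, limma adjusted p = 0.307) or either array of 3 months (−0.99 and −0.96, adjusted p = 0.0872 and 0.0681), and the Psmb11 call in 23 of 36 fits that left out 1 array of any group (−1.45 to −0.86, limma adjusted p = 0.05 to 0.553).

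The Psmb10 values of the mTEC populations ran in different directions, and none of their changes passed at 6 months. Psmb10 had 11.85 and 11.41 in mTEChi at 1 month, 11.90 and 12.13 at 3 months, and 12.30 and 12.37 at 6 months, where both arrays were above those of 1 month (0.70, limma adjusted p = 0.0525). In mTEClo it had 11.79 and 11.66, then 12.14 and 11.39, then 11 and 11.15, where both arrays of 6 months were below those of 1 month (−0.65, limma adjusted p = 0.096), near the cTEC value of −0.73 at 6 months (adjusted p = 0.0577). A moderated F-test over the 10 contrasts of population and age called 1 of 8 members, Psmb10 (F = 3.98, limma adjusted p = 0.0248), where 15.7% of genes were called. It was not called with quantile normalization, the thymocyte covariate or the 3′ minus 5′ covariate (limma, adjusted p = 0.0985, 0.0536 and 0.0594). In a contrast chosen after the data were seen, the change between 3 months and 1 month in cTEC, less that in the mean of the mTEC, was called by limma in 1 of 8 members, again Psmb10, where 1.12% of genes were called. In fibroblasts, 2 of 8 members were called between 3 months and 1 month (20.4% of genes). Psmb7 was higher by 0.76 ± 0.24 (limma, adjusted p = 0.0255), and Psmb9, at 10.48 and 10.90 in 3-month against 9.53 and 10.32 in 1-month fibroblasts, by 0.76 ± 0.25 (adjusted p = 0.0308). Without the first fibroblast array of 1 month, which has the largest 3′ minus 5′ difference, these were 0.47 and 0.37 (limma, adjusted p = 0.369 and 0.498). With the thymocyte covariate they were 0.64 and 0.67 (limma, adjusted p = 0.111 and 0.114), and fitted on the fibroblast arrays alone they had adjusted p = 0.173 and 0.206. The Psmb7 call was also lost without either 3-month array (0.67 and 0.85, limma adjusted p = 0.132 and 0.0848), and the Psmb9 call without the second (0.55, adjusted p = 0.312). Limma called 0 of 8 members between 3 months and 1 month in mTEChi (0% of genes), mTEClo (1.77%), Sirpa+ DC (0.331%) and Sirpa− DC (0.0345%), with 1, 0, 0 and 0 at an unadjusted p of 0.05.

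**Figure D3:**
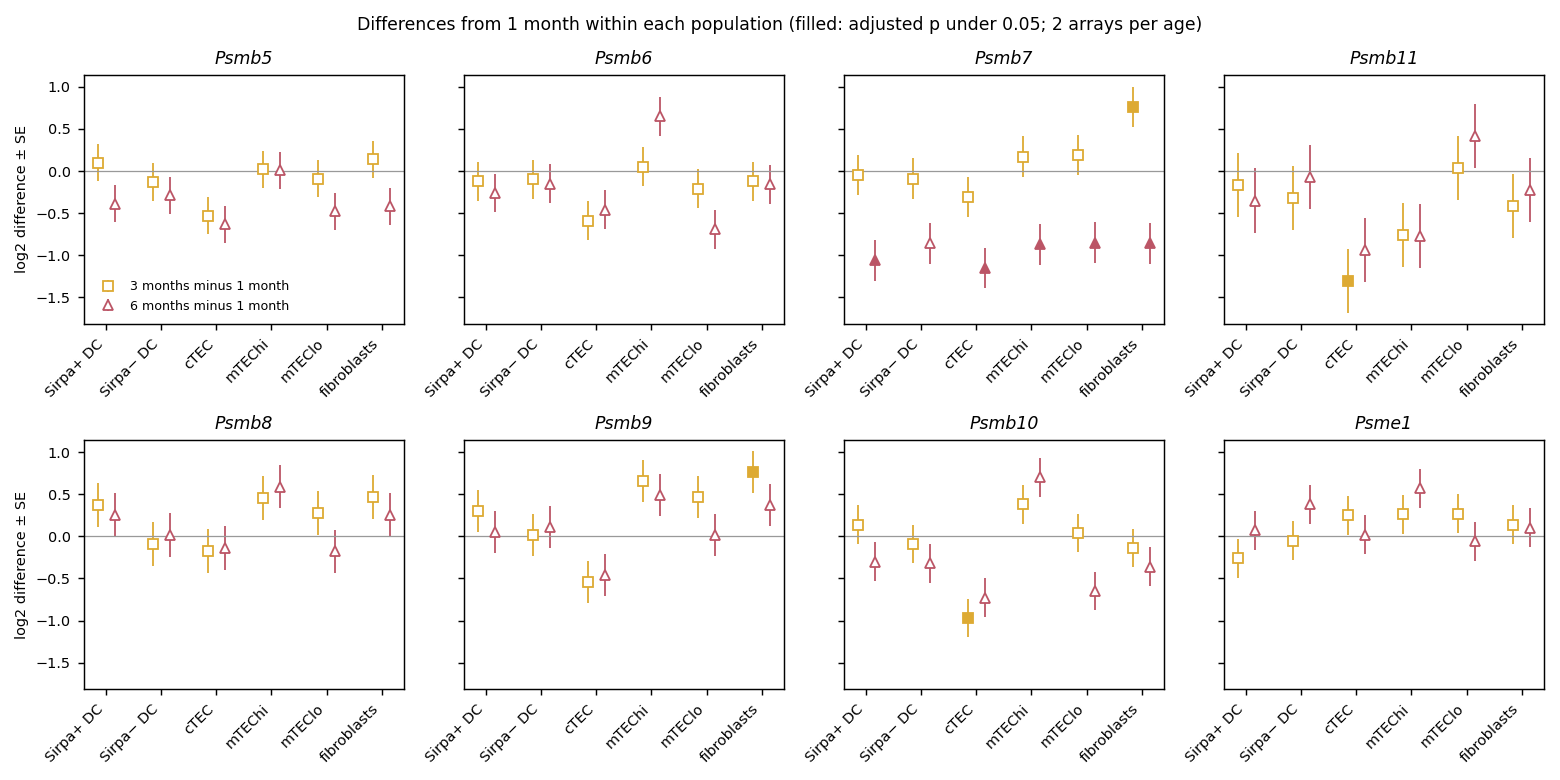
Log2 difference from 1 month (vertical axis, with bars of 1 SE) of the 8 measured members at 3 months (squares) and 6 months (triangles) in each population (horizontal axis), filled where the adjusted p is under 0.05. The Psmb7 triangles lie between −1.15 and −0.85 in all 6 populations, and Psmb10 is lower in cTEC (−0.97 at 3 months) while its mTEChi points lie above 0.

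Partner differences also changed with age, tested over the populations by exchanging arrays between 2 ages within each population, with adjustment over 15 such tests, of which 10 passed. The exchange treats the populations as independent. Whether they share mice within an age is not given, and if they do, these p-values may be too small. Psmb8 minus Psmb5 averaged −0.27 at 1 month, 0.03 at 3 months and 0.23 at 6 months. In all 6 populations both arrays of 6 months were above both of 1 month (0.50, exact permutation, adjusted p = 0.000214, with a raw p of 4.29e-05 that is the smallest possible). By population the 3 ages had means of 0.22, 0.49 and 0.86 in Sirpa+ DC, 0.45, 0.49 and 0.77 in Sirpa− DC, −0.83, −0.47 and −0.34 in cTEC, −0.64, −0.21 and −0.07 in mTEChi, −0.34, 0.03 and −0.03 in mTEClo, and −0.46, −0.14 and 0.21 in fibroblasts. The part of the 3′ minus 5′ difference in these changes was not tested. With it as a covariate, the difference of 6 months from 1 month was 0.29 for Psmb8 itself (limma, adjusted p = 0.224) and −0.21 for Psmb5, and neither passed. These values are for each gene alone. The partner difference itself was not fitted with this covariate, so they do not show that its change was lost.

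Psmb9 minus Psmb6 averaged −0.24 at 1 month, 0.21 at 3 months and 0.03 at 6 months (0.46 between 3 months and 1 month, exact permutation, adjusted p = 0.00129). Psmb10 minus Psmb7 averaged −0.15, −0.37 and 0.52, and in all 6 populations both arrays of 6 months were above both of 1 month and both of 3 months. The change was 0.66 between 6 months and 1 month (exact permutation, adjusted p = 0.000214) and 0.88 between 6 and 3 months (exact permutation, adjusted p = 0.000214). Between 6 months and 1 month Psmb10 alone changed by −0.28 and Psmb7 alone by −0.94. Psmb11 minus Psmb8 was lower at 3 months than at 1 month (−0.71, exact permutation, adjusted p = 0.00675). Between 6 months and 1 month it did not pass (−0.45, exact permutation, adjusted p = 0.112). Both tests include Sirpa+ DC and fibroblasts, where Psmb11 reached at most 5.60 and 5.02, below the pooled median. The size of the change is therefore uncertain.

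The other genes of the proteasome were compared from lists. Between cTEC and the mTEC, 0 of 8 alpha ring, 0 of 4 non-catalytic beta, 0 of 6 regulatory ATPase, 0 of 12 non-ATPase and 0 of 8 chaperone genes differed by 2-fold (limma), beside 13.6% of all genes. An adjusted p alone was passed by 0, 1, 1, 3 and 3 of them, beside 52.2% of all genes. Psmb4, a structural beta subunit, was the beta gene that passed (0.52 ± 0.11, limma adjusted p = 0.000198), though not with the thymocyte covariate (0.41, adjusted p = 0.215). Between DC and epithelium, 1 of 8 alpha genes was called, Psma8, an alpha subunit known from the testis (1.77 ± 0.09, limma adjusted p = 2.43e-15). Its means were 6.04 in Sirpa+ DC and 5.90 in Sirpa− DC, against 4.17 in cTEC, 4.27 in mTEChi and 4.15 in mTEClo, all 3 below the pooled median, so that the size of this difference is uncertain. Fibroblasts were also below it, at 4.70. Psma8 was thus among the genes tested only through the DC arrays, where it is high, so its call is no independent support. None of the beta, ATPase, non-ATPase and chaperone genes was called there (limma; 24.5% of all genes), while 2, 3, 6 and 7 passed an adjusted p alone (75.9% of all genes). The chaperone Pomp, which guides catalytic subunit assembly, differed by 0.59 ± 0.10 between DC and epithelium and by −0.68 ± 0.15 between Sirpa+ and Sirpa− DC (limma, adjusted p = 5.09e-06 and 0.0011). Nfe2l1, a transcription factor that drives constitutive proteasome genes, was lower in DC (−1.08 ± 0.11, limma adjusted p = 1.03e-09), and under 2-fold (−0.94 to −0.69) with equal array medians or either covariate. Psme3, which encodes the nuclear activator PA28-gamma, was lower in cTEC than in the mTEC, as Psme1 was (−0.61 ± 0.10, limma adjusted p = 2.78e-05), below 2-fold.

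Of the regulators of interferon signalling and MHC class I, 3 of 12 were called higher and 0 lower in DC than in epithelium, a share near the 24.5% of all genes called, with a median of 0.74 beside −0.01 for all genes. Nlrc5, the transactivator of MHC class I genes that also acts on Psmb9 and Tap1, had means of 10.63 (Sirpa+ DC) and 10.62 (Sirpa− DC), against 7.93 in cTEC, 9.48 in mTEChi, 9.72 in mTEClo and 7.87 in fibroblasts. It was higher in DC than in epithelium (1.58 ± 0.11, limma adjusted p = 3.45e-12) and lower in cTEC than in the mTEC (−1.67 ± 0.15, adjusted p = 1.54e-09), where Psmb9 differed the other way. The interferon-gamma receptor gene Ifngr2 was also lower in cTEC than in the mTEC (−1.14 ± 0.09, limma adjusted p = 1.3e-10). In the mean of the DC the kinase gene Jak2 (1.65 ± 0.07) and the transcription factor gene Irf8 (1.41 ± 0.12) were higher than in epithelium (limma, adjusted p = 2.05e-17 and 8.95e-11). For Irf8 this did not hold for each population. Its mean was 12.77 in Sirpa− DC and 11.45 in Sirpa+ DC, against 11.57 in mTEChi, 10.39 in cTEC and 10.14 in mTEClo.

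Interferon-induced genes outside the proteasome were divided between DC and epithelium: 3 of 14 were called higher in DC and 7 lower (24.5% of all genes were called in either direction), with a median of −0.82. Mx1 (2.32 ± 0.13), Irf7 (1.48 ± 0.08) and Rsad2 (1.15 ± 0.12) were higher in DC, while the GTPase gene Iigp1 (−3.54 ± 0.11) and the chemokine gene Cxcl10 (−2.55 ± 0.16) were lower, each called by limma. Within DC the list was split, with 6 of 14 called higher and 0 lower in Sirpa+ than in Sirpa− DC (limma). The median difference there was 0.90, and 5.37% of all genes were called. Sirpa+ against Sirpa− means were 9.48 and 6.54 for Ifit1, 10.10 and 6.75 for Ifit3, and 9.70 and 6.34 for Oasl2. Epithelial means of these genes ran from 9.66 to 10.74, 8.06 to 10.84 and 9.73 to 10.88. Iigp1 and Cxcl10 were below every epithelial mean in both DC populations. In fibroblasts, 11 of 14 were lower than in the other 5 populations and 0 higher (18.4% of all genes were called), with a median of −1.56 beside −0.04 for all genes. With the thymocyte covariate, whose marker mean was 8.87 to 11.17 in these arrays, 5 of 14 were called lower. Tap1, whose start faces that of Psmb9, averaged 10.14 in Sirpa+ DC, 10.34 in Sirpa− DC, 9.42 in cTEC, 9.33 in mTEChi, 9.82 in mTEClo and 8.57 in fibroblasts. It was below the others in fibroblasts (−1.24 ± 0.09, limma adjusted p = 5.58e-12), as Psmb9 was, though not past the threshold with the thymocyte covariate (−1.10, adjusted p = 0.0786). It differed between cTEC and the mTEC by −0.15 ± 0.10 (adjusted p = 0.202), where Psmb9 was higher.

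Foxn1 averaged 9.37 in cTEC, 9.64 in mTEChi and 8.40 in mTEClo, against 4.13 in Sirpa+ DC, 4.10 in Sirpa− DC and 3.82 in fibroblasts, while Psmb11 was far lower in mTEChi than in cTEC. Of 7 genes listed as Foxn1 and its known dependents, 5 were higher and 0 lower in cTEC than in the mTEC by 2-fold, where 13.6% of all genes were called. The 5 are Psmb11 itself, Cd83, and Ccl25, Cxcl12 and Prss16, which also stand among the cTEC markers, while Foxn1 and Dll4 were not called.

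**Figure D4:**
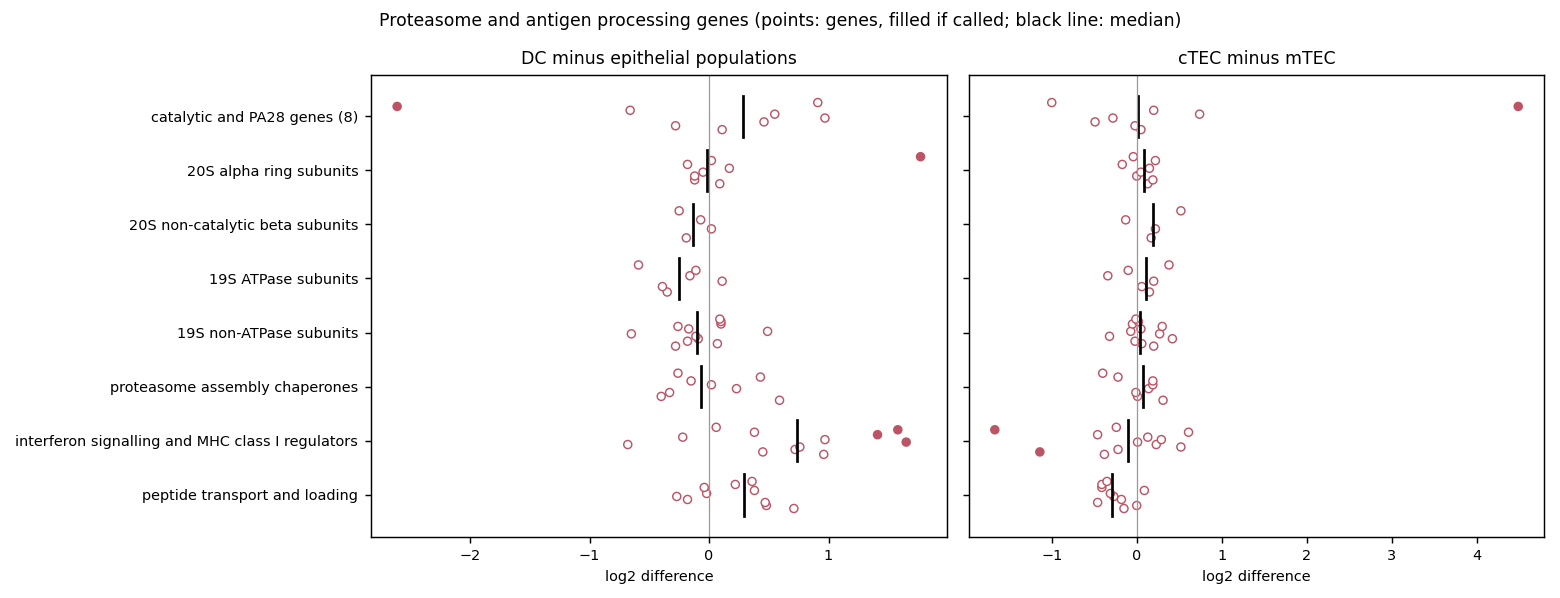
Log2 difference (horizontal axes) of every gene tested in 8 gene groups (rows), between DC and the epithelial populations on the left and between cTEC and mTEC on the right, with points for genes, filled where called, and a black line for the median of a group. Among alpha ring, beta, ATPase, non-ATPase and chaperone genes only Psma8 is filled, at 1.77 on the left. Psmb11 is at −2.61 on the left and 4.49 on the right, and the interferon and MHC class I regulators have medians of 0.74 and −0.10.

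With age, over the mean of the populations (36.6% of all genes called), 2 of 8 alpha genes rose between 1 month and 6 months and 0 fell, Psma4 by 0.56 ± 0.09 and Psma7 by 0.49 ± 0.08 (limma, adjusted p = 4.05e-05 and 5.02e-05). Of 12 non-ATPase genes 6 rose and 0 fell, among them Psmd12 by 0.50 ± 0.09 (limma, adjusted p = 0.00011). Among 4 non-catalytic beta genes Psmb1 was higher (0.24) and Psmb3 lower (−0.49) (limma, adjusted p = 0.0294 and 0.00526), and Psmc5 was called lower among 6 ATPase genes (−0.29). Pomp was higher (0.50 ± 0.10) and Nfe2l1 lower (−0.54 ± 0.12) at 6 months (limma, adjusted p = 0.000803 and 0.000823). The 3′ minus 5′ difference of the controls was lower at 6 months than at 1 month, as given above. With it as a covariate, 2 of 8 alpha genes (Psma4 and Psma7) and 1 of 12 non-ATPase genes (Psmd12, 0.44) were called higher. None of the beta, ATPase and chaperone genes was then called (limma), with values of 0.32 for Psmb1, −0.19 for Psmb3, −0.15 for Psmc5 and 0.39 for Pomp, and neither was Nfe2l1 (−0.12).

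The genes whose 18 group means were most like those of a member, by Pearson correlation among all genes tested and as a description only, were Cers3 (0.98), Plekhb1 (0.974) and Dlk2 (0.964) for Psmb11, and Rab32 (0.967), Mob3a (0.945) and Oasl1 (0.944) for Psme1. For Psmb7 they were Pfdn2 (0.955), Nup54 (0.951) and Eif2s3x (0.937), and for Psmb5 Supt6 (0.867), Trp53rkb (0.85) and Ndufa9 (0.831). For Psmb6 they were Ppp2r1a (0.935), Atp5d (0.873) and Txn1 (0.857). For Psmb8 they were Bin3 (0.943), Kctd20 (0.941) and Eif1ad (0.939), for Psmb9 Copg2 (0.932), H2-DMa (0.897) and Zc3h12c (0.896), and for Psmb10 Plcd4 (0.90), Naxe (0.896) and Serhl (0.89). Among the members, the closest pair was Psmb8 and Psme1 at 0.78, followed by Psmb5 and Psmb7 at 0.75 and Psmb10 and Psmb11 at 0.66, while Psmb8 and Psmb11 had −0.62. The immunoproteasome subunits gave 0.45 for Psmb8 and Psmb9, 0.34 for Psmb9 and Psmb10 and −0.38 for Psmb8 and Psmb10. These means share arrays and populations, so the correlations are not independent of each other.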

How the data were processed

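Affymetrix mouse whole-genome arrays were hybridised with RNA of 36 sorted samples. Per the labels' protocols, Trizol served for RNA extraction and the cRNA was biotinylated. Normalization was by the authors, in Gene Expression Commons per the series' design text and with GCRMA per the submitters' processing notes. For its version, nothing is given in the sources used here. The log2 scale of the deposited signals was read from their range (2.62 to 14.58), and they were used as deposited. Of 45101 probe sets, 34945 had 1 gene symbol, 932 several, 9160 none and 64 were controls. Genes above the pooled median in at least 2 arrays were tested.

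Groups came from the labels. Using limma 3.58.1 (R 4.3.3), a mean per population and age was fitted over the 36 arrays (18 residual degrees of freedom, eBayes with an intensity trend, two-sided, Benjamini-Hochberg over all genes tested). A call needed an adjusted p under 0.05, and between populations also 2-fold. Partner differences were tested by exact permutation within strata. All members were named in each comparison, up to 4 called and 2 uncalled genes from each list, and the 3 genes most like each member. Precision is limited by the number of arrays. The scripts were tested on simulated data. The members, lists and tests were chosen with earlier results of these data known, and the contrast of age changes between cTEC and mTEC, the comparison without fibroblasts and the alternatives for the gene lists after the data were seen.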

Additional observations from a re-analysis of the deposited data

Results flagged for a closer look

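Psmb10 was flagged because its change with age differed between populations. The moderated F-test over 10 contrasts had a limma adjusted p = 0.0248 for it, against 0.0985 with quantile normalization, 0.0536 with the thymocyte covariate and 0.0594 with the 3′ minus 5′ covariate. The call was lost in the fits without the first cTEC array of 1 month, either cTEC array of 3 months, the second mTEChi array of 1 month or the second mTEChi array of 6 months, each of which called 0 of 8 members. A single contrast, chosen after the data were seen, set the change from 1 month to 3 months in cTEC against that in the mean of the mTEC populations. The change in cTEC minus that in the mTEC was −1.19 ± 0.28 for Psmb10 (limma, adjusted p = 0.0344), where 1.12% of genes were called, and −1.10 ± 0.30 for Psmb9 (adjusted p = 0.0786), which was not called.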

How the results depend on the processing

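Among named results, 363 checks of calls kept the call and 69 lost it, and of uncalled results 2248 stayed uncalled and 109 passed, with no reversal. For the fits without 1 array, these totals hold the lowest and the highest value of each result as separate checks. Both were labelled by the fit that changed the call most, so the same 18 lost and 17 gained calls enter under each. For DC against epithelium (1 member called), the count was 2 with the mean of all probe sets or the 3′ minus 5′ covariate, 3 with equal array medians and 7 with no fold minimum. For cTEC against the mTEC (1 called) it was 2 with quantile normalization, which adds Psme1, and 4 with no fold minimum, which also gave 4 for mTEChi against mTEClo, 2 for Sirpa+ against Sirpa− DC and 27 for each population against the others (8 called). For ages over the mean of the populations (3 called) it was 6 with quantile normalization, 1 with the 3′ minus 5′ covariate and 1 at a minimum of 1.5-fold. For ages within populations (9 called) it was 14 with array weights, 5 with the thymocyte covariate and 3 when only the groups compared were fitted. The F-test (1 called) gave 0 with quantile normalization or either covariate. With a replicate block, the counts were 5 for the mean of the populations and 14 within populations. The replicate numbers were not taken to pair the samples. Arrays with the same age and number correlated in residuals at −0.07 to 0.42 (median 0.09, 16 of 45 pairs over 0.1), which cannot settle whether they are paired. Whether such arrays share an animal is not given. Leaving out each array in turn gave 1 to 2 members for cTEC against the mTEC, 0 throughout for mTEChi against mTEClo and for Sirpa+ against Sirpa− DC, 1 to 2 for DC against epithelium, 6 to 8 for each population against the others, 6 to 13 for ages within populations, 2 to 5 for the mean of the populations and 0 to 2 for the F-test. It gave 20 to 24 partner differences between populations and 7 to 11 between ages. Causes of these shifts were not tested. The number of arrays and, for Psmb11 outside cTEC, a signal near the pooled median limit the precision.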
